A study of Marchantia polymorpha with 78 samples.

Results

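Marchantia polymorpha thalli that had spent 60 min in white light were compared with thalli kept in darkness for the same 60 min. The comparison rests on 3 libraries labelled white light and 3 labelled darkness, out of 78 libraries in the series, and covers 13054 of the 19355 genes in the table, those that reached 1 TPM in 3 or more of all libraries. TPM is transcript abundance per kilobase of transcript, scaled to 1000000 per library, so levels can be set beside each other between genes. All plants were male wild type (Tak-1). Gemmae were cultured under unbroken white light at 23 °C for 8 days, on medium containing 1% sucrose, and then stood in darkness for 24 h. The white-light group was then moved to broad white light of 50 to 60 µmol m⁻² s⁻¹, and the darkness group stayed in the dark. Single lights sampled at 60 min are used below as well, blue (peak at 430 nm, 30 to 40 µmol m⁻² s⁻¹), red (660 nm, 80 to 90) and far-red (730 nm, 30 to 40). White light and darkness at 30 and 180 min and a time-zero group from the end of the 24 h dark period are also used. Each library pooled 3 plants, and the labels say that a culture plate carried 3 biological replicates, so a plate and its treatment cannot be told apart and p-values measure the spread between such replicates. These are bulk samples, in which fewer cells of a type and less RNA per cell cannot be told apart.

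Land plants read light through phytochromes (red and far-red), cryptochromes and phototropins (blue) and the UV-B receptor UVR8. In darkness the COP1/SPA and DET1 complexes mark light-response factors for degradation, and in light this brake is released, so that bZIP and B-box transcription factors act on their targets. Early targets in many plants include flavonoid synthesis genes, plastid genes, clock genes and the negative regulators of the pathway itself. Marchantia is a liverwort with a small set of photoreceptor genes, many of them present as single copies.

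Between 12141 and 12182 genes reached 1 TPM in the white-light libraries, against 11976 to 12027 in darkness. The 50 most abundant genes took 15.59 to 16.25% of all TPM in white light and 17.84 to 20.83% in darkness. The median difference of all tested genes was 0.145 on the log2 scale, and -0.012 with TMM factors, a rescaling that recentres the libraries. Replicate 3 of darkness stood apart from its group: its root mean square log2 distance to the 180 min darkness group was 0.228, against 0.357 for replicate 1 and 0.387 for replicate 2, and its distance to the 30 min darkness group was 0.281, against 0.231 and 0.24. Results are therefore also given without it. MpRBCS, the small subunit of Rubisco and a marker of photosynthetic thallus, had 238, 229 and 234 TPM in white light and 303, 307 and 270 TPM in darkness. MpPRM, the sperm protamine, was listed at 0 in all 6 libraries. MpDUO1, another male germ line marker, had 1.57, 3.04 and 3.05 TPM in white light and 0.364, 0.849 and 1.73 TPM in darkness. Its difference of 0.87 was not called. The germ line markers MpTUA5 (0.290 to 1.32 TPM) and MpBHLH20 (0 to 0.106 TPM) were too low to be tested. Neither any of the 4 oil body markers nor the 1 rhizoid marker, MpBHLH14 at 0.39, was called with all libraries. The oil body marker MpC1HDZ had 68.2, 64.5 and 68.4 TPM in white light and 30.1, 31.7 and 42.9 TPM in darkness, a difference of 0.94 that was called without dark replicate 3, at 1.09.

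A gene is called here when limma's adjusted p (Benjamini-Hochberg over all 13054 genes) is under 0.05 and the log2(TPM + 1) difference is at least 1 in size. In white light 967 genes were higher (7.41% of those tested) and 304 were lower (2.33%), 1271 in all (9.74%). Without replicate 3 of darkness 1181 were higher (9.05%) and 321 lower (2.46%), 1502 in all (11.5%), and 1218 of the 1271 calls were kept. The direction split depended on scaling. With TMM factors 708 genes were higher (5.42%) and 475 lower (3.64%), 1183 in all (9.06%), so that 59.8% of calls were rises instead of 76.1%. All 304 falls and 708 of the 967 rises were called under both scalings. The libraries of the 2 groups did not overlap for 1264 of the 1271 called genes, against 59.6% of all tested genes. A rise reached 2 on the log2 scale in 140 genes and a fall reached -2 in 38. Of the called genes 340 carry a symbol, 281 of them higher.

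**Figure D1:**
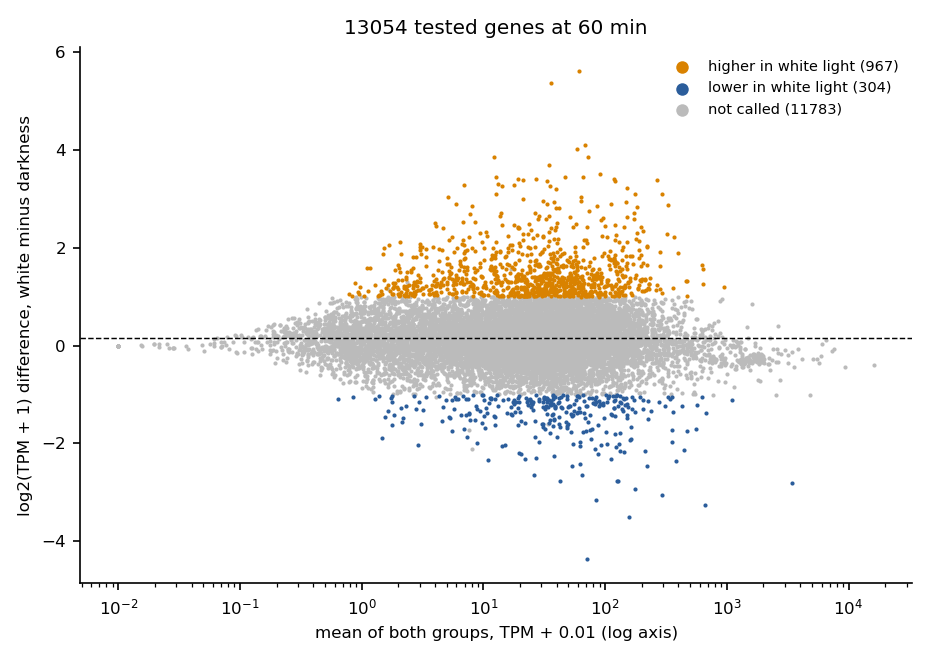
Each point is 1 of the 13054 tested genes, with the mean TPM of both groups on a log axis (x) and the log2(TPM + 1) difference of white minus darkness at 60 min (y); orange genes were called higher, blue genes lower, grey genes were not called and the dashed line is the median of 0.145. Rises outnumber falls, and the largest rises lie above 5.

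The photoreceptor and light-signalling list had 21 tested members, of which 4 rose (19%) and 2 fell (9.52%), against 7.41% and 2.33% of all genes. The rises were MpRUP, MpLOVA, MpCOP1 and MpDET1, and the falls were MpCRY, a blue-light receptor, and MpFHY1. MpRUP, the relative of the Arabidopsis RUP proteins that return UVR8 to its inactive form, had 70.2, 66.7 and 66.4 TPM in white light and 7.35, 7.15 and 9.74 TPM in darkness (log2 difference 2.93 ± 0.09 SE, limma adjusted p = 6.3e-37). MpLOVA, listed here by its symbol, had 68.9, 59.4 and 64.1 TPM in white light and 5.75, 6.15 and 5.57 TPM in darkness (3.25 ± 0.10, adjusted p = 7.5e-39). Every white-light library was far above every dark one for both genes. MpCOP1, the ubiquitin ligase subunit of the dark brake, had 184, 193 and 197 TPM in white light and 60.2, 55.0 and 62.4 TPM in darkness (1.68 ± 0.07, adjusted p = 7.4e-32). MpDET1, of the partner complex, had 159, 149 and 156 TPM in white light and 42.3, 36.0 and 44.9 TPM in darkness (1.89 ± 0.08, adjusted p = 1.9e-30). The white-light libraries of both genes were all above the dark ones.

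MpCRY, the cryptochrome, had 78.4, 73.0 and 83.4 TPM in white light and 181, 174 and 255 TPM in darkness (log2 difference -1.35 ± 0.08, limma adjusted p = 2.9e-22). Replicate 3 supplied the highest dark value, and without it the difference was -1.17. MpFHY1, the carrier that takes phytochrome into the nucleus, had 18.6, 22.5 and 21.6 TPM in white light and 45.6, 39.0 and 53.9 TPM in darkness, a difference of -1.10 that fell short of the threshold, at -0.98, without replicate 3. MpSPA1, the partner of COP1, moved the other way across the threshold, at 0.92 with all libraries and 1.05 without replicate 3. The list's count without that library was 5 higher and 1 lower. The other 14 members were not called and lay between -0.60 and 0.57. They include the red and far-red receptor MpPHY, the phototropin MpPHOT at -0.60, MpUVR8 at 0.32, the PIF factor MpBHLH6 at 0.50, MpFKF at 0.37, MpNCH1 at -0.31, MpNPH3 at -0.25, MpCRY-DASH at 0.15, MpTZP1 at 0.57, MpCOP10 at 0.47, MpEID1 at 0.39, MpDDB1 at 0.30, and the chromophore enzymes MpHY1 at 0.19 and MpHY2 at -0.10. MpPHY had 149, 127 and 152 TPM in white light and 109, 95.8 and 192 TPM in darkness, so the groups overlapped through dark replicate 3, and the difference was 0.17 ± 0.12 (adjusted p = 0.21) with all libraries and 0.48 without it.

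B-box factors are zinc-finger proteins that act with or against the bZIP factor HY5 in other plants. Of 6 tested members 4 rose (66.7%, against 7.41% of all genes) and none fell (2.33% of all genes), with a median of 1.59. MpBBX2 showed the largest difference of any gene with a symbol: 72.7, 69.1 and 72.0 TPM in white light, against 0.383, 0.795 and 1.14 TPM in darkness (5.37 ± 0.17 SE, limma adjusted p = 2.3e-37). MpBBX3 had 232, 209 and 217 TPM in white light and 17.8, 20.1 and 21.3 TPM in darkness (3.41 ± 0.15, adjusted p = 6.3e-30). MpBBX2 was thus close to silent in the dark and MpBBX3 was not, yet in white light MpBBX3 was the more abundant. MpBBX1 rose by 1.85 and MpBBX6 by 1.33, while MpBBX4 at 0.48 and MpBBX5 at 0.23 were not called.

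Of 15 bZIP factors 4 rose (26.7%, against 7.41% of all genes) and 1 fell (6.67%, against 2.33%). MpBZIP1 had 203, 203 and 203 TPM in white light and 43.4, 40.0 and 41.8 TPM in darkness (2.26 ± 0.07, limma adjusted p = 1.5e-37), with nearly equal values in the white-light libraries. MpBZIP5 rose by 1.73 and MpBZIP13 by 1.53. MpBZIP9 fell, to 30.3, 30.9 and 33.8 TPM in white light against 117, 119.6 and 126 TPM in darkness (-1.90 ± 0.08, adjusted p = 8.8e-30).

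Of 8 tested circadian clock genes 3 rose (37.5%, against 7.41% of all genes) and none fell (2.33% of all genes). MpELF3, a subunit of the evening complex, had 252, 260.1 and 278 TPM in white light and 37.7, 39.2 and 48.9 TPM in darkness (2.63 ± 0.07, limma adjusted p = 1e-39). MpPRR, a pseudo-response regulator, had 355, 341 and 362 TPM in white light and 76.7, 67.8 and 124 TPM in darkness (2.02 ± 0.10, adjusted p = 6.3e-26). The high dark value was again replicate 3, and the difference was 2.27 without it. Mp1R-MYB11, the REVEILLE gene, rose by 1.34 ± 0.09. The other evening complex members did not follow MpELF3: MpELF4 stood at 0.07 and MpGARP7, the LUX gene, at -0.06. MpGI at 0.42, MpTOC1 at 0.27 and MpXCT at 0.03 were not called either.

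**Figure D2:**
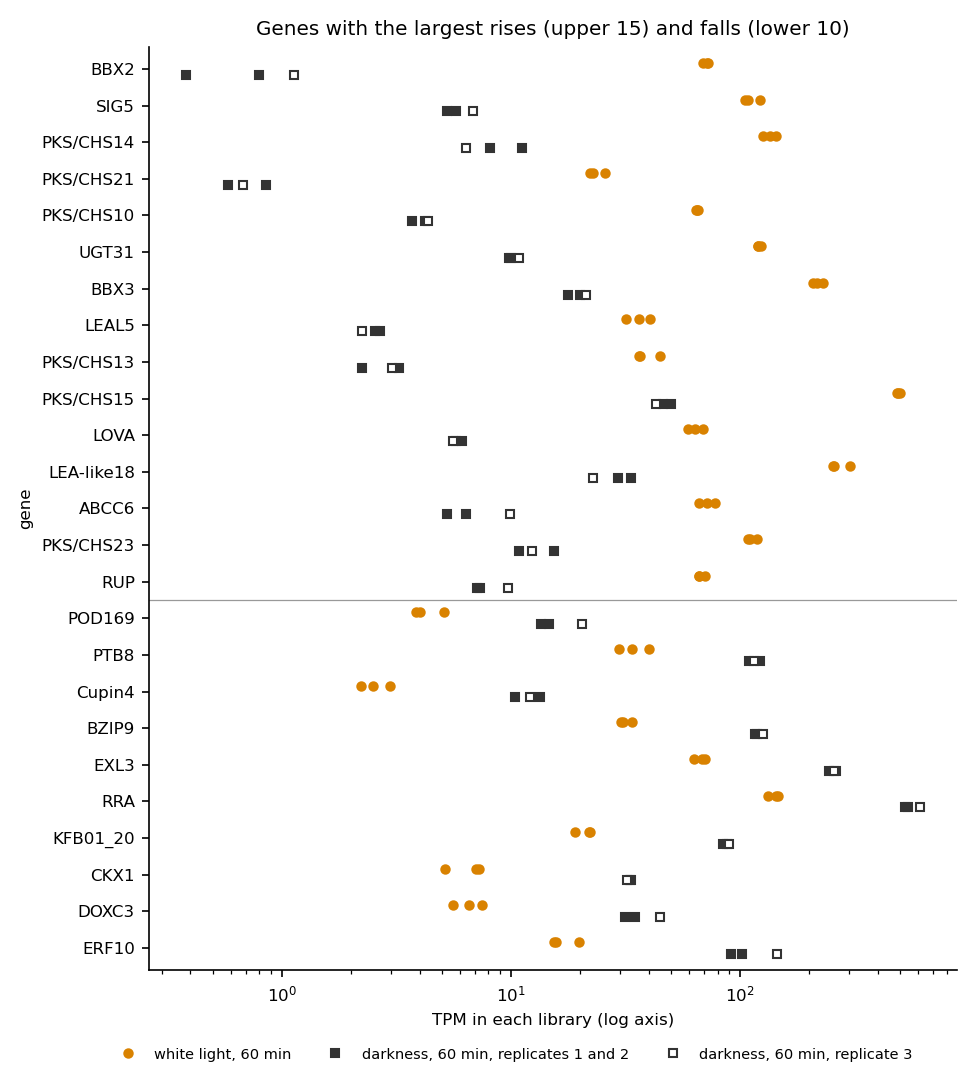
TPM in each of the 6 libraries (x, log axis) for the 15 genes with a symbol and the largest rises (upper rows) and the 10 with the largest falls (lower rows), symbols without the prefix Mp; orange circles are white light, black squares dark replicates 1 and 2, open squares dark replicate 3. The groups are separate for all 25 genes, with MpBBX2 between 69.1 and 72.7 TPM in white light and between 0.383 and 1.14 TPM in darkness.

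Plastid sigma factors are nuclear-encoded subunits that direct the plastid RNA polymerase to its promoters, and the 2 called members of their list moved in opposite directions. MpSIG5 had 122, 105 and 108 TPM in white light and 5.75, 5.29 and 6.87 TPM in darkness (4.02 ± 0.10 SE, limma adjusted p = 1e-42). MpSIG2 had 114, 114 and 123 TPM in white light and 329.6, 318 and 347 TPM in darkness (-1.498 ± 0.04, adjusted p = 5.4e-42). In darkness MpSIG2 was the more abundant of the pair, and in white light both stood near the same level. The other 6 of the 8 list members, which also take in flavodiiron proteins and plastid terminal oxidases, were not called.

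Of 5 tested chlorophyll and haem synthesis genes 1 rose (20%, against 7.41% of all genes). MpGUN5, the large subunit of magnesium chelatase, had 333, 326 and 348 TPM in white light and 129, 109 and 151 TPM in darkness (1.38 ± 0.07, limma adjusted p = 5.8e-26). Its partner subunits MpCHLD at 0.45 and MpCHLI1/2-like at 0.15 were not called. None of the 16 plastid isoprenoid and carotenoid genes was called, their median was 0.05 and their range -0.87 to 0.49. With TMM factors 1 of them was called lower.

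Phenylpropanoid and flavonoid synthesis turns phenylalanine into flavonoids and related phenolics, which screen light in land plants. Of 66 tested members 23 rose (34.8%, against 7.41% of all tested genes) and 1 fell, with a median of 0.47 against 0.145 for all genes. With TMM factors 18 rose and 2 fell. Chalcone synthase-type genes (PKS/CHS), which make the flavonoid skeleton, rose in 12 of 18 cases. MpPKS/CHS14 had 144, 135 and 127 TPM in white light and 11.2, 8.08 and 6.41 TPM in darkness (3.86 ± 0.12 SE, limma adjusted p = 4.9e-38). MpPKS/CHS15 was the most abundant, with 487, 499 and 491 TPM in white light and 49.9, 46.0 and 43.1 TPM in darkness (3.38 ± 0.08, adjusted p = 9.5e-44). MpPKS/CHS21 had 25.9, 23.0 and 22.2 TPM in white light and 0.855, 0.583 and 0.681 TPM in darkness, a difference of 3.86 ± 0.17. MpPKS/CHS10 rose by 3.70, MpPKS/CHS13 by 3.39 and MpPKS/CHS23 by 3.05. Members of the same family did not all take part, since MpPKS/CHS16 at -0.60 and MpPKS/CHS3 at -0.95 were not called, MpPKS/CHS3 being called lower with TMM factors.

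Phenylalanine ammonia-lyase genes, the entry step, rose in 3 of 8 cases, all modestly: MpPAL6 by 1.54, MpPAL7 by 1.51 and MpPAL1 by 1.09. MpPAL-like2 rose by 2.90, with 61.6, 58.8 and 58.1 TPM in white light and 7.77, 6.41 and 7.23 TPM in darkness. MpF3H, flavanone 3-hydroxylase, had 294, 324 and 311 TPM in white light and 69.8, 74.3 and 65.1 TPM in darkness (2.14 ± 0.06, limma adjusted p = 4.2e-41). MpC4H1, cinnamate 4-hydroxylase, rose by 1.13, and neither of 2 tested 4CL genes nor any of 4 chalcone isomerase-type genes was called. Dihydroflavonol reductase-like genes rose in 4 of 19 cases, led by MpDFR-like19 at 2.05. The single fall was MpHCT, an acyltransferase of the branch towards caffeoyl esters, with 91.8, 98.7 and 93.4 TPM in white light and 200.1, 196 and 208 TPM in darkness (-1.08 ± 0.06, adjusted p = 2.1e-25). The calls of MpC4H1, MpPAL1, MpDFR-like9, MpLAR-like5 and MpPKS/CHS11 were lost with TMM factors.

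Neighbouring genes on chromosome 4, the 11 from Mp4g14100 to Mp4g14200, all rose, by 1.02 to 3.86. They are 6 PKS/CHS genes (10 to 15), MpPAL6, MpPAL7, MpPAL-like2 and 2 genes without a symbol. This was the longest of 13 runs of 3 or more called neighbours of 1 direction. The genes on its far side, MpPAL4 (0.60) and MpPKS/CHS16 (-0.60), were not called, so the run ended inside a stretch of related genes. Members of such families are similar in sequence and reads may be shared between them, so the value of a single copy is less certain than that of the group. Other runs held 5 dirigent genes, MpDIR33 to MpDIR37, which rose by 1.05 to 1.59, and 3 auxin-response genes described below. MpPKS/CHS11 lost its call with TMM factors, which splits the run of 11, and runs were not counted again under that scaling.

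Late embryogenesis abundant (LEA) proteins and dehydrins protect cells during drying and other stress. Of 64 tested members 17 rose (26.6%, against 7.41% of all genes) and 1 fell, with a median of 0.48. Without replicate 3 of darkness 16 rose and 2 fell. MpLEA-like18 had 258, 303 and 256 TPM in white light and 33.6, 29.5 and 22.9 TPM in darkness (3.22 ± 0.19 SE, limma adjusted p = 5.2e-23). MpLEAL5, close to it on chromosome 4, had 32.0, 40.4 and 36.3 TPM in white light and 2.68, 2.56 and 2.25 TPM in darkness (3.41 ± 0.23, adjusted p = 3.7e-20). MpLEA-like24 to MpLEA-like27 rose by 1.46 to 2.50. The most abundant dehydrin, MpDHN3, was not called, with 228, 228 and 207 TPM in white light and 246, 249.5 and 279 TPM in darkness. MpLEA-like33 fell by 1.15. At later times the list leaned the other way. At 180 min 5 of the 64 were higher in white light (10.6% of all genes) and 19 were lower (8.53% of all genes), and at 1440 min 1 was higher (14.5%) and 35 were lower (11.7%). MpLEA-like18 itself stood at -1.66 at 1440 min.

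**Figure D3:**
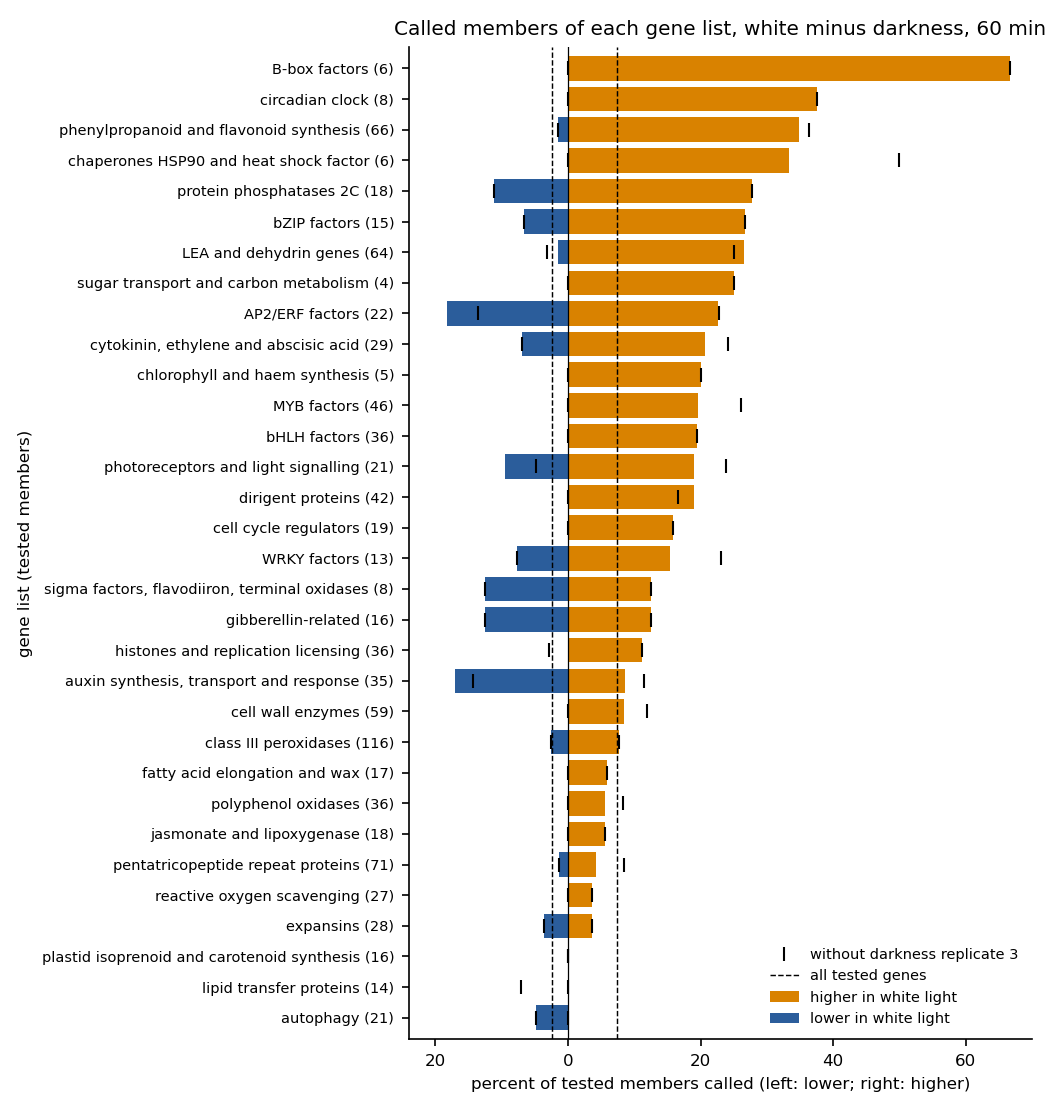
Percent of the tested members of each gene list that were called higher (orange, right) or lower (blue, left) in white light at 60 min, with the number of tested members in brackets; ticks give the same without dark replicate 3 and dashed lines the share of all tested genes (7.41% higher, 2.33% lower). B-box, clock, phenylpropanoid and LEA lists are among those beyond the right line, and the auxin list is among those beyond the left one. The AP2/ERF list reaches beyond both, as do others. The B-box and clock lists hold only 6 and 8 tested members.

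Hormone genes moved in both directions. Of 29 cytokinin, ethylene and abscisic acid genes 6 rose (20.7%, against 7.41% of all genes) and 2 fell (6.9%, against 2.33%). The falls were cytokinin genes: MpRRA, the type-A response regulator, had 145, 132 and 147 TPM in white light and 525, 544 and 614 TPM in darkness (-1.98 ± 0.05 SE, limma adjusted p = 8.4e-42), and MpCKX1, a cytokinin-degrading oxidase, had 7.31, 5.15 and 7.06 TPM in white light and 33.6, 33.0 and 32.3 TPM in darkness (-2.19 ± 0.12, adjusted p = 4.6e-25). The rises were led by abscisic acid genes. MpABA1, named after an Arabidopsis gene of abscisic acid synthesis, had 293, 296 and 289 TPM in white light and 62.3, 61.7 and 68.1 TPM in darkness (2.18 ± 0.06, adjusted p = 1.5e-40). MpNCED, the cleavage enzyme of the same route, rose by 1.67 and the receptor MpPYL1 by 1.26, while MpCYP707A, of the family that breaks abscisic acid down, rose by 1.04. The cytokinin receptor MpCHK2 rose by 1.25 and the ethylene signalling kinase MpCTR1 by 1.03. With TMM factors 4 of the list rose, and the calls of MpCYP707A and MpCTR1 were lost.

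Of 35 auxin genes 3 rose (8.57%, against 7.41% of all genes) and 6 fell (17.1%, against 2.33%). The falls were mostly SAUR genes, small auxin-up RNAs linked to cell expansion, of which 5 of 13 fell and none rose. MpSAUR9 had 1.04, 1.30 and 0.742 TPM in white light and 4.95, 5.73 and 4.65 TPM in darkness (-1.60 ± 0.16, limma adjusted p = 9.8e-14). MpSAUR13 had 3.02, 3.497 and 3.85 TPM in white light and 11.1, 13.2 and 8.74 TPM in darkness (-1.42 ± 0.20, adjusted p = 6e-09). MpSAUR12, MpSAUR13 and MpSAUR14 are neighbours on chromosome 1, and MpSAUR10 (-0.75) and MpSAUR11 (-0.89) beside them were below 0 without being called, MpSAUR11 being called with TMM factors. The auxin receptor MpTIR1 fell by 1.06, a call lost without dark replicate 3 (-0.94). The rises were MpGH3A, an auxin-conjugating enzyme, at 1.54, the co-repressor MpTPL at 1.33 and the auxin synthesis gene MpYUC2 at 1.29.

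Of 16 gibberellin-related genes 2 rose and 2 fell (12.5% each, against 7.41% and 2.33% of all genes). MpDELLA, the growth repressor, had 63.1, 52.8 and 55.7 TPM in white light and 13.1, 10.1 and 13.7 TPM in darkness (2.14 ± 0.11, limma adjusted p = 5.4e-27). MpGID1L4 rose by 1.69, whereas MpGID1L8 fell by 1.08 and MpKAOL1 by 1.23. Of 18 jasmonate and lipoxygenase genes 1 rose (5.56%), the lipoxygenase MpLOX4, by 1.92.

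Among transcription factor families, 9 of 46 MYB (19.6%) and 7 of 36 bHLH genes (19.4%) rose, against 7.41% of all genes. None fell, where 2.33% of all genes did, a share too small to set families of this size apart. MpGCAM1, an R2R3-MYB needed to form gemma cups, had 11.1, 11.6 and 11 TPM in white light and 0.906, 0.173 and 1.03 TPM in darkness (2.89 ± 0.15 SE, limma adjusted p = 2.1e-25). The other measured marker of gemma cups, MpKAR, stood at 1.08 and was also called, a call lost with TMM factors. MpR2R3-MYB5 had 97.8, 83.3 and 96.0 TPM in white light and 16.3, 14.8 and 18.2 TPM in darkness, a rise of 2.42. Mp1R-MYB7 rose by 1.43. Without dark replicate 3 the MYB count was 12. The bHLH rises were led by MpBHLH4 at 1.80, MpBHLH41 at 1.64 and MpBHLH7 at 1.63.

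AP2/ERF factors split, with 5 of 22 higher (22.7%, against 7.41% of all genes) and 4 lower (18.2%, against 2.33%). MpERF10 showed the largest fall of any gene with a symbol, with 19.8, 15.8 and 15.4 TPM in white light and 102, 91.6 and 146 TPM in darkness (-2.65 ± 0.11, limma adjusted p = 3.9e-30). Dark replicate 3 was the highest, and without it the difference was -2.45. MpERF11 fell by 1.53, while MpERF15 rose by 2.02, MpERF2 by 1.64 and MpERF4 by 1.60. MpERF2 had 41.8, 35.8 and 42.0 TPM in white light and 9.30, 7.91 and 23.5 TPM in darkness, another gene with a high dark replicate 3. Of 13 WRKY factors 2 rose (15.4%) and 1 fell (7.69%). MpWRKY3 rose by 1.30 with all libraries and by 1.78 without dark replicate 3, and MpWRKY1 rose by 1.05, a call lost with TMM factors. MpWRKY9 fell by 1.19.

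Of 10 tested MCM genes, which license DNA for replication, 4 rose, and none of 26 histone genes was called. Over both, 11.1% rose, against 7.41% of all genes. MpMCM6 had 6.29, 7.79 and 7.15 TPM in white light and 1.05, 1.24 and 2.12 TPM in darkness (1.73 ± 0.15 SE, limma adjusted p = 3.7e-16). MpMCM7 rose by 1.31 and MpMCM3 by 1.24. Of 19 cell cycle regulators 3 rose (15.8%), MpCYCD_1, a D-type cyclin, by 2.27, the inhibitor MpSMR by 1.82 and MpE2F by 1.14. The call of MpE2F was lost with TMM factors.

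Among 59 cell wall enzymes 5 rose (8.47%, close to the 7.41% of all genes). They include the pectin esterase family gene MpCE8.12 (2.05), MpGH16.8 (1.93) and the cellulose synthase-like gene MpCSLD9 (1.65). MpCSLD9 had 923, 942 and 983 TPM in white light and 277, 273 and 365 TPM in darkness. Expansins, which loosen walls, had 1 rise (MpExpansin15, 1.46) and 1 fall (MpExpansin34, -1.46) in 28. That is 3.57% each way, against 7.41% and 2.33% of all genes. Class III peroxidases had 9 rises and 3 falls in 116, close to the share of all genes. MpPOD130 rose by 1.55, MpPOD3 by 1.45 and MpPOD89 by 1.32, and MpPOD169 fell by 1.69 and MpPOD158 by 1.62. Dirigent proteins, which steer phenolic coupling, rose in 8 of 42 cases (19%, against 7.41% of all genes) and in 6 with TMM factors, MpDIR37 by 1.59, MpDIR33 by 1.501 and MpDIR50 by 1.42. Polyphenol oxidases rose in 2 of 36 cases (5.56%, against 7.41% of all genes). MpPPO20 had 299, 295 and 300.4 TPM in white light and 44.0, 42.4 and 47.4 TPM in darkness, a difference of 2.72 ± 0.06 (limma adjusted p = 5e-45), and MpPPO38 rose by 1.36.

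Protein phosphatases 2C had 5 rises (27.8%) and 2 falls (11.1%) in 18, with 2 rises under TMM factors. All tested genes had 7.41% rises and 2.33% falls. MpPP2C_B rose by 1.88, MpPP2C_G by 1.41 and MpPP2C_C1 by 1.18, and MpPP2C_F3 fell by 1.19 and MpPP2C_K2 by 1.12. Chaperones of the HSP90 family and the heat shock factor had 2 rises in 6 (33.3%), MpHSP90-1 by 1.33 and MpHSP90-2 by 1.19. Pentatricopeptide repeat proteins, which process organelle RNA, had 3 rises (4.23%) and 1 fall (1.41%) in 71, or 6 rises without dark replicate 3. MpPPR_73 had 171, 166 and 175 TPM in white light and 31.8, 28.7 and 30.9 TPM in darkness (2.45 ± 0.07, limma adjusted p = 6.8e-40). MpPPR_43 rose by 1.38 and MpPPR_41 by 1.32, and MpPPR_5 fell by 1.60. Reactive oxygen scavenging genes had 1 rise in 27 (3.7%), MpAPX3 at 1.03, a call lost with TMM factors. Autophagy genes had 1 fall in 21 (4.76%), MpATG8b at -1.16. The 4 sugar transport and carbon metabolism genes had 1 rise (25%), the sucrose transporter MpSUT4 at 1.62. The 17 fatty acid elongation and wax genes had 1 rise (5.88%), the elongase gene MpELO2 at 2.37, and the 14 lipid transfer proteins no call.

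Among the largest changes, several genes belonged to none of these lists. MpUGT31, a sugar-transferring enzyme of the UGT family, had 120.1, 124 and 120.0 TPM in white light and 9.996, 9.81 and 10.9 TPM in darkness (3.45 ± 0.08 SE, limma adjusted p = 3.3e-43). MpABCC6, of the ABC transporter subfamily that loads vacuoles, had 71.9, 66.5 and 77.8 TPM in white light and 5.29, 6.36 and 9.90 TPM in darkness (3.19 ± 0.12, adjusted p = 9.7e-33). Both groups were separate in each case. The falls included MpDOXC3, a 2-oxoglutarate-dependent dioxygenase, at -2.32, the kelch-repeat F-box gene MpKFB01_20 at -2.005, MpEXL3 at -1.91, MpCupin4 at -1.86 and MpPTB8 at -1.73. Among genes without a symbol, the leading ones in each direction are named here beyond the rule, and only Mp2g00040 among the rises exceeded MpBBX2. Mp2g00040 had 111, 134 and 114 TPM in white light and 1.57, 1.28 and 1.60 TPM in darkness (5.60 ± 0.21). Mp1g16520 had 136, 127 and 129.8 TPM in white light and 7.17, 5.46 and 7.63 TPM in darkness (4.10 ± 0.10). In the other direction, Mp1g04910 had 4.87, 4.74 and 7.70 TPM in white light and 139, 144 and 125 TPM in darkness (-4.36 ± 0.12), and Mp4g08080 stood at -3.51 ± 0.07.

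The time course asked whether the response at 60 min differed from that at 30 and 180 min, testing the difference of the 2 white minus darkness differences. Between 30 and 60 min 338 genes changed their response (2.59% of those tested), 232 upwards (1.78%) and 106 downwards (0.812%). MpELO2 was at -0.12 at 30 min and 2.37 at 60 min, the largest upward change among genes with a symbol (2.49). MpLEAL5 changed by 2.15 and MpSIG5 by 2.13. Of the 64 LEA and dehydrin genes 19 had a larger response at 60 than at 30 min and none a smaller one, against 9 and none of the 66 phenylpropanoid genes. At 30 min itself 14 of 66 phenylpropanoid genes and 3 of 64 LEA genes were higher in white light (2.49% of all genes), and none of either list lower (0.437% of all genes). The difference between the lists was not tested. In the downward direction MpERF10 and MpERF21 each changed by -2.08. MpWRKY6 changed by -1.88. It stood at 1.997 at 30 min and 0.12 at 60 min, with 0.406, 0.286 and 0.459 TPM in white light and 0.279, 0.276 and 0.271 TPM in darkness at 60 min.

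Between 60 and 180 min 1223 genes changed their response (9.37%), 369 upwards (2.83%) and 854 downwards (6.54%). With TMM factors the split was 506 upwards and 617 downwards. Among genes with a symbol MpBBX2 lost most, at 5.37 at 60 min and 2.23 at 180 min (change -3.14). The dehydrin MpDHN1 changed by -3.03 and stood at -3.23 at 180 min, and MpERF10 changed by a further -2.67. Of the 64 LEA genes 35 had a lower response at 180 than at 60 min and none a higher one, and of the 66 phenylpropanoid genes 18 a lower and 3 a higher one. Among the light-signalling list 5 were lower, among them MpCOP1 (-1.38), MpRUP (-1.03), MpDET1 (-1.14) and MpLOVA (-1.58), and MpBZIP1 was back at -0.09. Upward changes among genes with a symbol were led by MpRLK-Pelle_WAK1, a receptor-like kinase (2.19), MpFBA4 (2.02) and the histone gene MpH3.1d (1.86). Of the 36 histone and MCM genes 14 had a higher response at 180 than at 60 min and none a lower one, and MpMCM6 stood at 3.54 at 180 min.

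**Figure D4:**
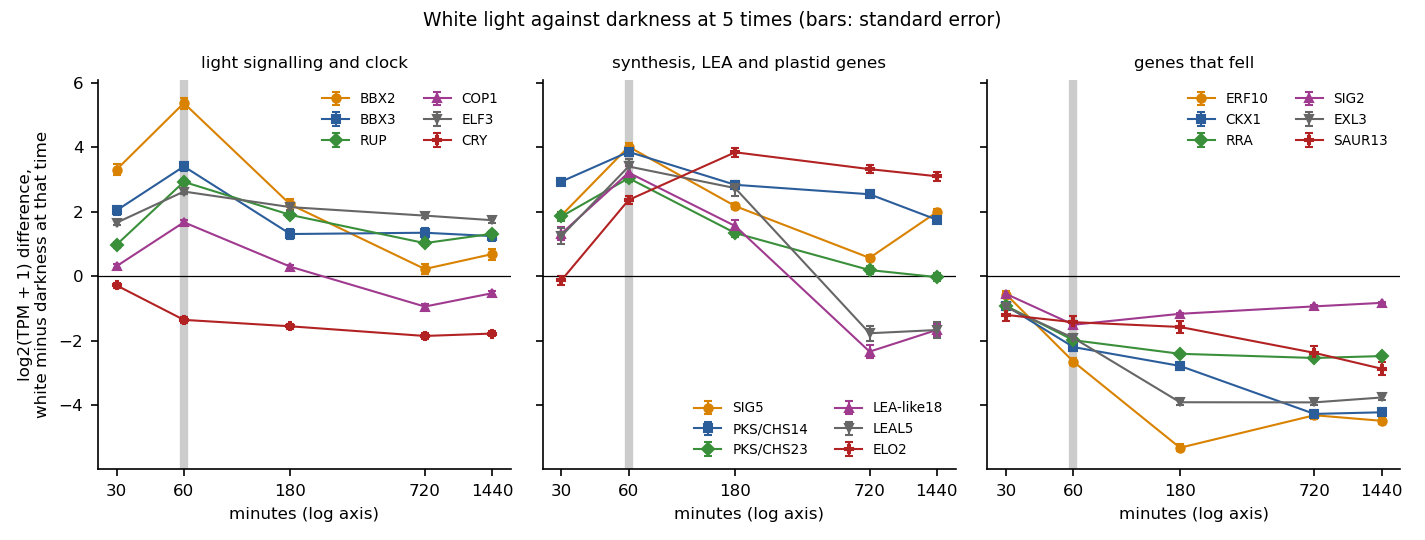
Log2(TPM + 1) difference of white minus darkness (y) at 30, 60, 180, 720 and 1440 min (x, log axis) for 18 genes chosen for display, symbols without the prefix Mp, with bars for the standard error and a grey band at 60 min. MpBBX2, MpRUP, MpCOP1 and MpSIG5 are highest at 60 min, MpELO2 is highest at 180 min, and MpERF10 falls further to -5.31 at 180 min.

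White light was also set directly against each single light at 60 min. Dark libraries enter these contrasts only through the shared estimate of the spread. The intensities differed between lights, as given above. Against blue light 8 genes were called (0.0613%), 7 higher (0.0536%) and 1 lower (0.00766%), and none of them carries a symbol. This split was not stable, with 4 higher and 6 lower without white replicate 2, and 6 higher and 7 lower without white replicate 3. When only the compared groups were fitted 16 were higher and 0 lower. At any size of difference 1413 genes, the 8 included, had a limma adjusted p under 0.05. Against red light 28 genes were called (0.214%), 17 higher (0.130%) and 11 lower (0.0843%), or 19 and 6 with TMM factors. The 17 include 2 of the 21 light-signalling genes, MpRUP and MpCOP1, and 2 of the 6 B-box genes. MpRUP averaged 67.8 ± 2.10 TPM in white light and 13.2 ± 0.577 TPM in red light (SD, n = 3 each, difference 2.28 ± 0.09 SE), and 90.1 ± 8.03 TPM in blue light. MpBZIP1 averaged 203 ± 0.144 TPM in white light and 54.7 ± 2.94 TPM in red light (1.88 ± 0.07), and MpBBX3 219 ± 11.6 TPM in white light and 72.0 ± 1.32 TPM in red light (1.59 ± 0.15). MpCOP1 (1.19), MpBBX2 (1.17), MpPPR_73 (1.10) and MpSIG5 (1.03) were also higher in white than in red light. None of these was called between white and blue light, where MpRUP stood at -0.40, MpBZIP1 at -0.33, MpBBX3 at -0.38 and MpBBX2 at -0.29. Among phenylpropanoid genes 1 was called lower in white than in red light, MpPKS/CHS18 at -1.01, while MpPKS/CHS14 stood at -0.51 and MpPKS/CHS13 at -0.85. MpPPO52 (-1.32) and the chitinase family gene MpGH19.3 (-1.11) were lower as well.

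Against far-red light 762 genes were called (5.84%), 402 higher (3.08%) and 360 lower (2.76%). Among genes with a symbol the largest positive differences were those of MpPKS/CHS14 (3.76), MpBBX2 (3.58) and MpSIG5 (3.17), and the largest negative ones those of MpERF10 (-3.48), MpKFB01_20 (-2.66) and MpERF21 (-2.50). Of the 66 phenylpropanoid genes 21 were higher in white than in far-red light and none lower, and of the 64 LEA genes 8 were higher and 1 lower. MpCRY averaged 78.3 ± 5.21 TPM in white light and 333 ± 24.6 TPM in far-red light (-2.08 ± 0.08 SE). MpPHY (-1.47) and MpPHOT (-1.20) were lower in white than in far-red light too. Some far-red values were spread widely, as for MpBBX3 at 69.6 ± 37.2 TPM. The clock gene MpPRR stood at 0.17 and MpCOP1 at 0.66, neither called, so far-red light left these 2 within 1 log2 unit of white light.

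**Figure D5:**
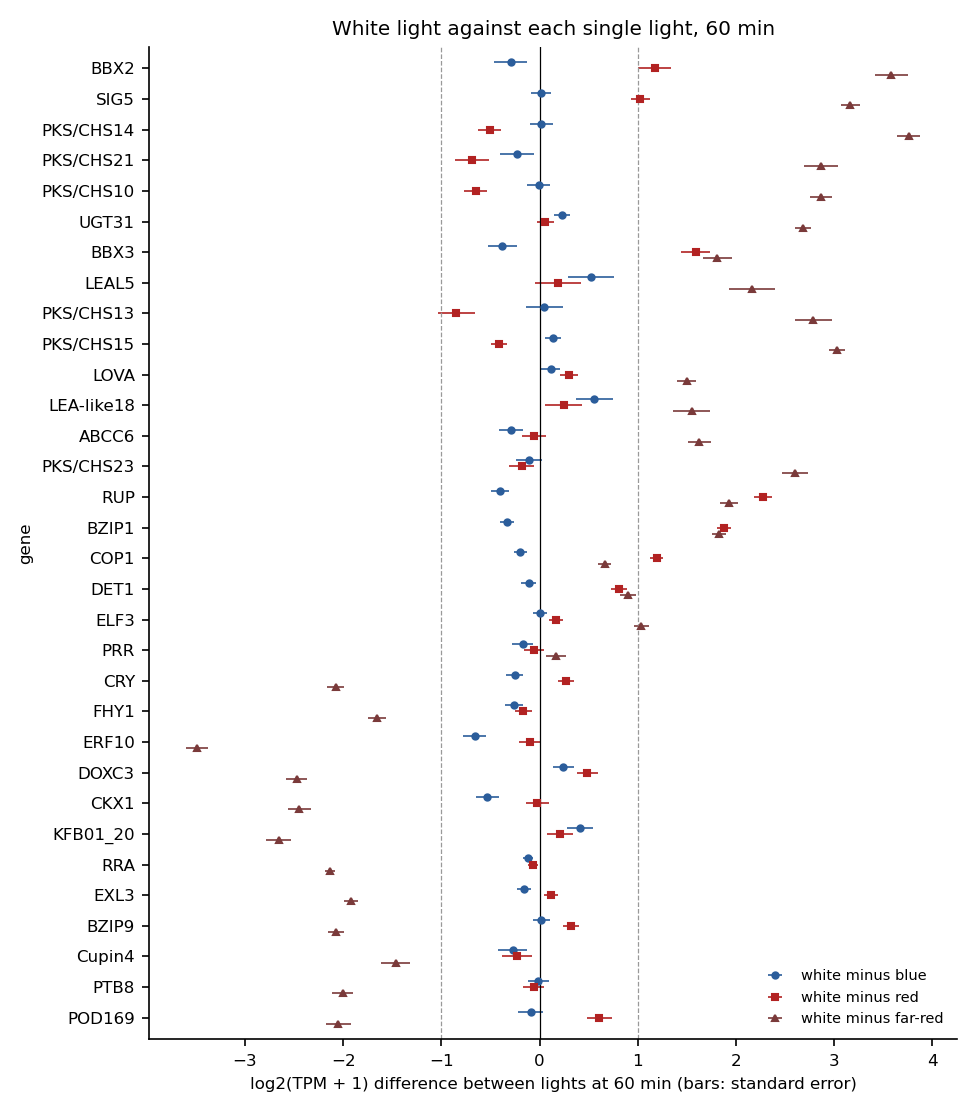
Log2(TPM + 1) difference (x, bars: standard error) of white minus blue (circles), white minus red (squares) and white minus far-red light (triangles) at 60 min for the genes named on the y axis, symbols without the prefix Mp; dashed lines mark a difference of 1. Blue stays within 1 of white for all genes shown. Red departs most for MpRUP (2.28), MpBZIP1 (1.88) and MpBBX3 (1.59), and by more than 1 also for MpCOP1, MpBBX2 and MpSIG5. Far-red departs for most genes.

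The dark reference itself moved little over the hour. Between time zero and 60 min of further darkness 28 genes were called (0.214%), 10 higher (0.0766%) and 18 lower (0.138%) at 60 min. Of these 28, 18 were also called for white light against darkness, as were 9.74% of all tested genes. The 2 comparisons share the 60 min dark libraries, so this overlap is in part built in. MpPPO38 was 1 of the 18, at -1.18 in darkness over that hour, so its rise in white light was measured against a falling dark level. MpBBX2 averaged 0.771 ± 0.377 TPM at 60 min of darkness and 0.816 ± 0.455 TPM at time zero (SD, n = 3 each), and MpSIG5 5.97 ± 0.817 TPM and 7.28 ± 0.615 TPM in the same order, so their dark levels differed little between those times.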

How the data were processed

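RNA of 78 libraries (26 groups of 3 biological replicates) was measured by poly(A) capture and paired-end sequencing of 150 bases. The values used are the TPM that the authors deposited per gene and replicate. The 26 columns of group means were not used. The submitters' processing notes name STAR only, so tool versions, the assembly behind the identifiers, the gene models and the TPM software are not stated. Every column sums to 1000000. Reads cannot be recovered from TPM, so depth is unknown and no counting interval is given.

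Genes at 1 TPM or more in 3 or more libraries were kept (13054 of 19355). Differences were fitted with limma 3.58.1 (R 4.3.3) on log2(TPM + 1), a scale that understates changes of low genes, with 1 mean per group over all 78 libraries, a trended prior variance and Benjamini-Hochberg adjustment. A call needs an adjusted p under 0.05 and a log2 difference of 1 or more in size. In simulated data for this comparison (13054 genes), the changed genes were drawn from those above 5 TPM in darkness. Of 50 changed by 1.5 on the log2 scale 49 were called. Of 50 changed by 0.7, 49 had an adjusted p under 0.05 and 0 were called, since the cut of 1 excludes them. There were 0 false calls, which the same cut favours. The simulation held no library that stood apart and no shift in scale, and it does not cover low genes. TMM factors (trimmed mean of M values) were computed on the TPM.

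Gene numbers were looked up in RefSeq names of MpTak2_v7.1, where 17384 matched and 3091 carried a symbol. Lists were built from symbols, and several planned lists (antenna proteins, photolyases, ribosomal proteins) lacked named members and are not described. A bZIP list was added to those planned. Text names, among called genes with a symbol whose call held without dark replicate 3, the 15 largest rises and 10 largest falls, up to 3 rises and 2 falls per list, every light-signalling and clock gene, and up to 3 genes per direction for each further test. Genes outside that rule were named after their values were seen. The members and lists were chosen with earlier results of these data known. Same-numbered libraries of both groups showed correlations of their deviations of -0.011, 0.149 and 0.118, so the numbers were not treated as pairs.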

Additional observations from a re-analysis of the deposited data

Results flagged for a closer look

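The response to white light, meaning the difference of white minus darkness at 1 time, was tested between times, and genes whose response differed between 60 min and the times beside it are given here as values. Between 30 and 60 min 338 genes differed. MpELO2 (2.49), MpLEAL5 (2.15) and MpSIG5 (2.13) had a larger response at 60 min on the log2(TPM + 1) scale. MpERF10 (-2.08), MpERF21 (-2.08) and MpWRKY6 (-1.88) had a lower one. Between 60 and 180 min 1223 genes differed. MpRLK-Pelle_WAK1 (2.19), MpFBA4 (2.02) and MpH3.1d (1.86) had a higher response at 180 min, and MpBBX2 (-3.14), MpDHN1 (-3.03) and MpERF10 (-2.67) a lower one. The 2 tests share the 60 min libraries, dark replicate 3 included. Without that replicate 360 genes differed between 30 and 60 min and 1337 between 60 and 180 min.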

How the results depend on the processing

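The count of 1271 called genes stayed within 1.5 times of itself under every alternative run, from 1183 with TMM factors to 1795 with a pseudocount of 0.1, and between 1217 and 1502 when 1 library of either group was left out. With TMM factors and without dark replicate 3 together, an alternative chosen after seeing the data, it was 1306. The replicate number as a block left it at 1271, and it changed no other count by more than 2.

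A pseudocount of 0.1 moved the 60 against 30 min count to 520, white against blue light to 29, white against red light to 59 and darkness at 60 min against time zero to 114. White against blue light gave 16 genes when only the groups compared were fitted and 5 with no filter on low TPM. Darkness against time zero gave 14 when only the groups compared were fitted. Leaving out 1 library gave 350 to 369 genes for 60 against 30 min, 1173 to 1337 for 180 against 60 min, 5 to 13 against blue, 20 to 30 against red, 762 to 788 against far-red light and 22 to 39 for darkness against time zero. The white against blue count was 5 without white replicate 1 and 13 without white replicate 3. No named gene reversed. MpPP2C_C1, MpE2F, MpWRKY1, MpAPX3, MpCYP707A, MpCTR1, MpKAR, MpGH16.14 and the 5 phenylpropanoid genes named above lost their call with TMM factors. MpFHY1 and MpTIR1 lost theirs without dark replicate 3, MpWRKY1 without dark replicate 1 and MpPOD89 without dark replicate 2. MpSPA1 and MpC1HDZ gained a call without dark replicate 3. The white against blue split was 12 higher and 17 lower with the pseudocount of 0.1. The causes were not tested. Depth is unknown, so how far it limits low genes cannot be stated.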

Other observations

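Further gene families, some with members that are also in the lists above, were counted after the calls had been seen. Their counts are therefore a description. All tested genes had 7.41% rises and 2.33% falls, or 5.42% and 3.64% with TMM factors. ABCC transporters, of the subfamily known for moving conjugated compounds into the vacuole, had 7 rises (50%) and no fall in 14 tested members, also with TMM factors. MpABCC6 rose by 3.19, MpABCC7 by 2.21 and MpABCC1 by 1.92. ABCB transporters had 4 rises in 10 (3 with TMM factors), led by MpABCB1 at 1.91, and ABCG transporters 6 rises and 3 falls in 28 (5 and 3). Glycosyltransferases named GT had 10 rises (13.2%) and no fall in 76, or 7 rises and 1 fall with TMM factors, led by MpGT34.1 at 1.86. UGT enzymes had 4 rises in 30 (13.3%), or 2 with TMM factors and 6 without dark replicate 3, with MpUGT31 at 3.45 and MpUGT11 at 1.84. Glycoside hydrolases had 13 rises and no fall in 100, or 9 rises with TMM factors, including MpGH17.2 at 2.41. Their GH16 and GH28 members are also in the cell wall list, so MpGH16.8 and MpGH16.14 count as rises in both. The call of MpGH16.14 was lost with TMM factors. Kinases named MAPKKK had 4 rises in 21 (19%), or 2 rises and 1 fall with TMM factors, with MpMAPKKK10 at 2.64. The other families counted lay on both sides of the share of all genes. Rises were 10 in 85 for CYP (11.8%), 4 in 35 for TRIHELIX, 4 in 23 for C2H2 and 4 in 22 for snf2. They were 3 in 76 for RLK (3.95%), 1 in 39 for Cupin (2.56%), 1 in 32 for GST (3.12%) and 1 in 27 for DOXC (3.7%). RLK and Cupin had 2 falls each, and CYP, TRIHELIX and DOXC 1 each.

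Among the 50 most abundant genes in darkness, picked by their dark level, 46 were below 0 in white light. The dark level also enters the difference, so a lean below 0 is in part built in. The share of all tested genes below 0 was not counted. Their median was -0.281, against 0.145 for all tested genes. Of the 50, 1 was called, against 9.74% of all tested genes. That gene, Mp5g19710, was named after its values were seen. It has no symbol and had 865, 823 and 857 TPM in white light and 5831, 5706 and 6363 TPM in darkness, a difference of -2.81. Genes of the male-specific V chromosome had 1 rise and 2 falls in 46 (7.41% and 2.33% of all tested genes).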
